A study of Mus musculus with 6 samples.

Results

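The circadian clock genes described here are 10 genes of the transcriptional clock of mammals, Arntl, Clock, Npas2, Per1, Per2, Per3, Cry1, Nr1d1, Nr1d2 and Dbp, out of 18194 genes with a named probe set in the series. They were chosen by symbol, with earlier results of these data known. Their values are those of the probe sets that the platform's probe-to-gene table assigns to a single gene. These were 24 probe sets, and all 10 genes lay above the filter on low values that left 11622 genes for testing. The samples were 6 tumours that grew under the skin of mice after injection of KPC1199, a mouse cell line of pancreatic ductal adenocarcinoma. The lactation group held 3 tumours, from mice injected when pregnant or at the start of nursing, and the control group held 3 tumours from mice labelled only as controls. All were collected 20 days after injection at the same age, and the labels give neither the strain nor the time of day of collection. All tumours came from the same injected line, which the labels call a xenograft although cells and hosts are both from mouse. Pregnant and nursing mice at injection are not told apart in the labels.

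In the clock, ARNTL (also called BMAL1) pairs with CLOCK or with its relative NPAS2 and switches on genes that carry E-boxes, among them the Per, Cry and Nr1d genes and Dbp. PER and CRY proteins then block that pair, and the NR1D receptors (REV-ERB alpha and beta) repress Arntl and Npas2, so that in most tissues Arntl and Npas2 peak when Dbp and the Nr1d genes are low. DBP and its relatives TEF and HLF bind D-boxes in genes such as the Per genes, where NFIL3 competes with them as a repressor. This loop runs in nearly every cell type of the body, and a bulk array gives its average over all cells of a tumour.

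Values are MAS5 signals, linear intensities that the authors had scaled to the same trimmed mean on each array. Array medians ranged from 99.3 to 111.0, and the number of arrays limits the precision. As a sign of RNA quality, log2 of the 3' over the 5' control signal lay between -0.427 and -0.403 on all arrays for Gapdh, and between 0.291 and 0.384 for Actb. All 7 duct epithelial markers were above the filter on these arrays, among them the keratin gene Krt8 with 21505, 20863 and 24228 in lactation and 22053, 19958 and 22320 in controls. Skeletal muscle markers varied between arrays: the summed signal of 7 genes was 75377, 24273 and 13301 in lactation replicates 1, 2 and 3 and 29659, 70904 and 8272 in control replicates 1, 2 and 3. Lactation replicate 1 and control replicate 2 thus had the highest muscle signal, and they were the highest arrays for each of the 7 genes.

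Of the 10 clock genes, all but Clock had a wider log2 range over the 6 tumours than the median tested gene, and their high and low arrays lay in both groups. Dbp, Per2, Per3, Cry1 and Nr1d2 were highest in lactation replicate 1 and control replicate 2, and Arntl and Npas2 were lowest in the same arrays. None of the 10 genes was separated by lactation: 0 of 10 passed limma over all genes, where 0.0% of the tested genes did, and 0 of 10 had an unadjusted p under 0.05, where 2.27% did. Values of the groups overlapped for all 10, against 6.91% of tested genes whose groups did not overlap. On the log2(signal + 16) scale 7 of the 10 had a lower mean in lactation, beside 51.7% of all tested genes. The median difference was -0.08 for the 10 and -0.01 for all tested genes.

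**Figure D1:**
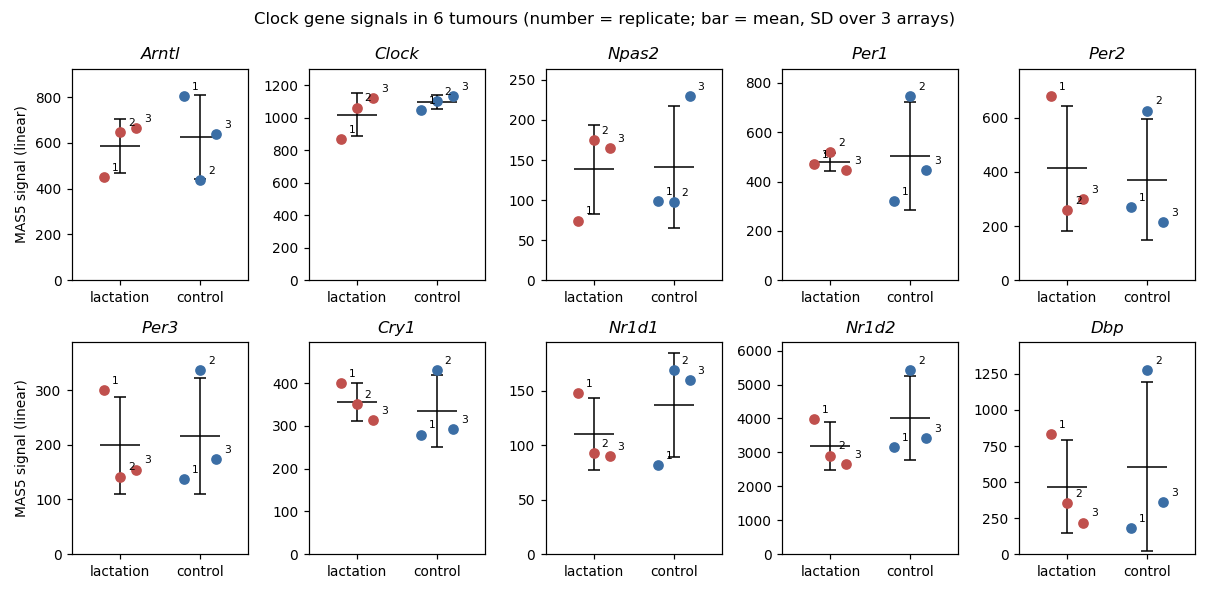
MAS5 signal (linear axis from 0) of the 10 clock genes in each tumour, lactation on the left and control on the right of each panel, with the replicate number beside each point and the mean and SD over 3 arrays. For Dbp, lactation replicate 1 (830) and control replicate 2 (1277) lie above the other 4 arrays, which range from 184 to 361.

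Arntl codes for the partner of CLOCK and NPAS2 in the activating pair described above. Its signal was 452, 645 and 666 in lactation replicates 1, 2 and 3, against 804, 438 and 639 in control replicates 1, 2 and 3. The lowest array of each group, lactation replicate 1 and control replicate 2, stood apart from the others of its group, and control replicate 1 was the highest of all. Means were 588 ± 118 in lactation and 627 ± 183 in controls (SD, n = 3 each), and the log2 difference was -0.07 (standard error 0.24, limma adjusted p = 1). Leaving out control replicate 1 gave 0.13, and leaving out control replicate 2 gave -0.30. A dimmer probe set for Arntl had a difference of 0.08.

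Npas2, which can stand in for Clock as the partner of ARNTL, measured 74.5, 175 and 165 in lactation replicates 1, 2 and 3, against 98.5, 97.1 and 230 in control replicates 1, 2 and 3. It was again lowest in lactation replicate 1 and control replicate 2, although control replicate 1 lay beside the second of these. The log2 difference was -0.01 (standard error 0.41, limma adjusted p = 1), and it was 0.34 without lactation replicate 1 and 0.36 without control replicate 3. Npas2 passed the filter with 3 of 6 arrays at or above the array median, so its low arrays sat near or under that level. A second, dimmer probe set read 3.59, 56.3 and 60.0 in lactation and 7.59, 8.16 and 67.6 in controls, with the same 3 arrays high. Its log2 difference was 0.39, with 0 arrays at or above the array median.

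Clock itself, the usual partner of ARNTL and a gene with little rhythm in many tissues, varied least of the 10. It measured 871, 1062 and 1121 in lactation and 1049, 1104 and 1132 in controls, and its log2 range over the 6 arrays, 0.37, was larger than that of 40.4% of tested genes. The log2 difference was -0.11 (standard error 0.12, limma adjusted p = 1). Its 95% interval, -0.38 to 0.16, was the narrowest of the 10. The difference was -0.0040 when lactation replicate 1, the lowest array, was left out, and -0.18 when lactation replicate 3 was. Over the probe sets of Clock it ran from -0.11 to 0.11.

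Dbp, a D-box activator and a direct target of the ARNTL pair, varied most. It measured 830, 354 and 219 in lactation replicates 1, 2 and 3, against 184, 1277 and 361 in control replicates 1, 2 and 3. The highest array, control replicate 2, was 6.94-fold above the lowest, control replicate 1, and both belong to the same group. This log2 range of 2.69 was wider than in 98.9% of tested genes, and the median range of all tested genes was 0.44. Group means were 468 ± 321 in lactation and 607 ± 586 in controls (SD, n = 3 each), and the log2 difference was -0.14 (standard error 0.73, limma adjusted p = 1). The sign of that difference rested on single arrays. It was -0.64 without lactation replicate 1, the higher lactation value, and 0.28 without lactation replicate 3. Leaving out control replicate 1 gave -0.74, and leaving out control replicate 2 gave 0.61. With lactation replicate 1 and control replicate 2 both left out it was 0.10. A second probe set for Dbp gave 423, 137 and 104 in lactation and 118, 730 and 175 in controls, with the same arrays at the top.

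The Nr1d genes code for nuclear receptors that repress Arntl and Npas2. Nr1d1 measured 148, 92.7 and 90.0 in lactation replicates 1, 2 and 3 and 82.3, 169 and 160 in control replicates 1, 2 and 3. Here control replicate 3 joined lactation replicate 1 and control replicate 2 at the high end, and the other 3 arrays lay below their medians. The log2 difference of Nr1d1 was -0.25 (standard error 0.32). Leaving out control replicate 1 gave -0.55, and leaving out control replicate 2 gave -0.09.
Nr1d2 measured 3996, 2905 and 2659 in lactation replicates 1, 2 and 3 and 3164, 5427 and 3416 in control replicates 1, 2 and 3. It had the largest of the 10 differences in size, -0.31 (standard error 0.23), and the limma adjusted p of both Nr1d genes was 1. It was -0.48 when lactation replicate 1 was left out and -0.07 when control replicate 2, the highest array, was left out.

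Before the Per and Cry values, promoter windows of 4 members are shown because they carry a match to the E-box, the related E-prime box or the D-box. Each line gives 250 bases upstream of a RefSeq transcript start (build GRCm38.p6), 5′ to 3′ on the gene's strand, with matches to the searched motifs in capitals. The windows are Per1 at chr11:69098699-69098948 on the plus strand (the upstream one of its 2 listed starts), Per3 at chr4:151044666-151044915, Cry1 at chr10:85185055-85185304 and Nr1d1 at chr11:98775378-98775627, the last 3 on the minus strand.
Per1: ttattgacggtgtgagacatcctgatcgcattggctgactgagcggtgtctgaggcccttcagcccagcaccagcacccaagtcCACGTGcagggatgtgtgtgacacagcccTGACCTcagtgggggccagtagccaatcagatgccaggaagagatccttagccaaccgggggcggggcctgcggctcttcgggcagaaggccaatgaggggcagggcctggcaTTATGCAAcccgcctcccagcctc
Per3: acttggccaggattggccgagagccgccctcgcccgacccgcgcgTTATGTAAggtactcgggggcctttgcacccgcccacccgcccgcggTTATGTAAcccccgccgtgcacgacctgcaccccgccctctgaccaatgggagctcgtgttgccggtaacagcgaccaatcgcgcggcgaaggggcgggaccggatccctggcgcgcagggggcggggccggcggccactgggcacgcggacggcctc
Cry1: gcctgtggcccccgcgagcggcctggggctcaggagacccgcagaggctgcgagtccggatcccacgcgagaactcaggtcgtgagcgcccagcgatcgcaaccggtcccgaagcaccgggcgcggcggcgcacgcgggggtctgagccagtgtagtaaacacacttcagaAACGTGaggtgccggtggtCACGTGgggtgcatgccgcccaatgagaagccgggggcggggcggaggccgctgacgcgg
Nr1d1: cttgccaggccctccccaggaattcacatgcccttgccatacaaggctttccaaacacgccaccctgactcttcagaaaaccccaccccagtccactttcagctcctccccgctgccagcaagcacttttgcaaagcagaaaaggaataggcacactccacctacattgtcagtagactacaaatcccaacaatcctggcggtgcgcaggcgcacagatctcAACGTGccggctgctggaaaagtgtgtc
Searched on both strands were the E-box CACGTG, the related E-prime box CACGTT, the D-box TTATGNAA and AGGTCA, the core letters read by ROR and NR1D receptors. A match on the other strand shows as the reverse complement, and no matches overlapped in the windows shown. Windows of 9 of the 10 members were matched by symbol, and Per2 was not matched. The 9 genes have 13 windows, since some have several listed starts. An E-box was found in 2 of the 13 windows, of Per1 at 166 and of Cry1 at 60 bases upstream, and in 6.02% of all 32851 windows. D-boxes were found in Per3 at 205 and 158 bases upstream and in Per1 at 24 bases upstream, in 2 of the 13 windows and in 3.07% of all windows. The E-prime box was present in 2 of the 13, of Cry1 and Nr1d1, and in 3.85% of all windows. AGGTCA was present in 3 of the 13, of Clock, Per1 and Nr1d2, and in 14.0% of all windows. The windows of Arntl, Npas2 and Dbp held no match to any of the searched motifs, and sequence beyond 250 bases upstream was not searched. A match describes letters in these windows and shows no binding.

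Per1, the Period gene that also answers quickly to hormones and cyclic AMP, measured 470, 521 and 447 in lactation replicates 1, 2 and 3, against 321, 746 and 446 in control replicates 1, 2 and 3. Only control replicate 2 was high, and the lactation arrays lay close together. The log2 difference was 0.01 (standard error 0.28), with -0.26 when control replicate 1 was left out and 0.33 when control replicate 2 was. Per2, which codes for a repressor that binds CRY, measured 679, 259 and 301 in lactation replicates 1, 2 and 3, against 269, 626 and 215 in control replicates 1, 2 and 3. Lactation replicate 1 and control replicate 2 each stood above the rest of their group, which lay between 215 and 301. The log2 difference was 0.17 (standard error 0.47), with -0.24 when lactation replicate 1 was left out and 0.61 when control replicate 2 was. The dimmer probe sets of Per2 had the other sign, with differences of -0.21 and -0.15. Per3, the third Period gene, measured 301, 142 and 155 in lactation replicates 1, 2 and 3, against 137, 337 and 174 in control replicates 1, 2 and 3. The same arrays were high, and the log2 difference was -0.09 (standard error 0.39), with -0.40 when lactation replicate 1 was left out and 0.26 when control replicate 2 was. Over the probe sets of Per3 the difference ran from -0.44 to 0.18. The limma adjusted p of each Per gene was 1.

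Cry1, which codes for the strongest repressor of the ARNTL pair, moved over a narrower span. It measured 401, 351 and 313 in lactation replicates 1, 2 and 3, against 280, 430 and 293 in control replicates 1, 2 and 3. Lactation replicate 1 and control replicate 2 were again among the highest arrays, at 401 and 430, and the span from the lowest to the highest array was 1.54-fold. Its log2 difference was 0.10 (standard error 0.19, limma adjusted p = 1), and 0.29 when control replicate 2 was left out.

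**Figure D2:**
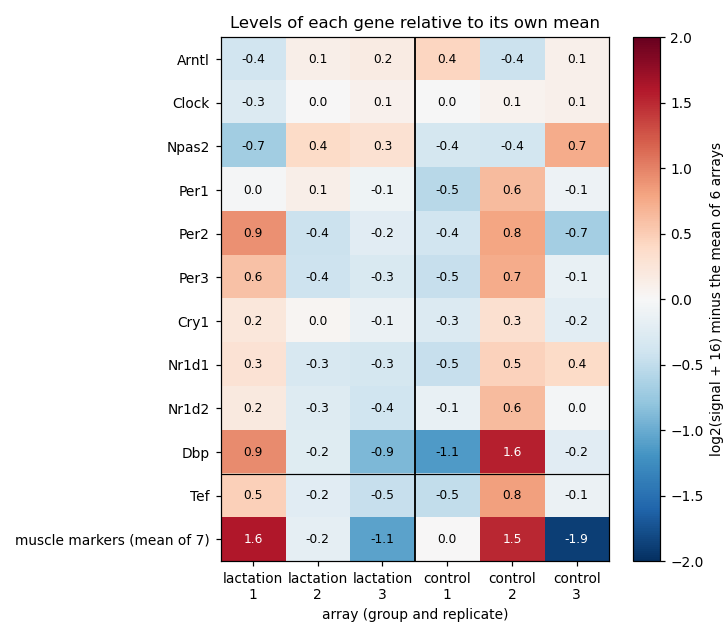
Level of each clock gene, of Tef and of the mean of 7 skeletal muscle markers on each array, as log2(signal + 16) minus that gene's mean over the 6 arrays. Columns are the lactation arrays and then the control arrays. Dbp is red in lactation replicate 1 and control replicate 2, where Arntl is blue.

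The arrays that stood at the ends were shared between genes. Of the 10 genes, 5 had lactation replicate 1 and control replicate 2 as their highest 2 arrays (Per2, Per3, Cry1, Nr1d2 and Dbp), as did 8.69% of all tested genes. Another 2, Arntl and Npas2, had them as their lowest 2, as did 9.07% of all tested genes. This pair of arrays was picked out after the values were seen. Among the genes with several probe sets, lactation replicate 1 and control replicate 2 were highest in 3 of 3 probe sets for Per2, 5 of 6 for Per3, and 2 of 2 each for Nr1d2 and Dbp. They were lowest in 1 of 2 probe sets each for Arntl and Npas2, and in 2 of 4 for Clock. For Arntl the brighter of its 2 probe sets had them lowest, and the dimmer one, at 82.2, 94.6 and 72.6 in lactation and 107, 79.0 and 54.1 in controls, did not. Some probe sets that shared the order were dim too. Per2 and Per3 each had such a probe set with 1 array at or above the array median, and Per3 had another with 0.

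Phase relations were examined by correlating Arntl and Npas2 with Dbp, Nr1d1, Per1, Per2 and Per3 over the 6 arrays, 10 pairs in all. The genes were chosen with earlier results of these data known, which the p-values of these pairs do not allow for. All 10 Pearson correlations were negative, but the pairs share genes, and the count is no test. The weakest, Npas2 with Per1 and with Nr1d1, had r of -0.0717 and -0.124, as low in 45.4% and 42.5% of other tested genes. Arntl ran opposite to Dbp without exception in rank: the array with the lowest Arntl had the highest Dbp, and so on through all 6. Pearson's r was -0.969 (exact two-sided permutation p = 0.00139, adjusted 0.0139 over the 10 pairs) and Spearman's rho was -1.0 (exact permutation p = 0.00278, adjusted 0.0278, the smallest raw p that ranks of 6 arrays allow). With the group means removed r was -0.986. Left to the 4 arrays other than lactation replicate 1 and control replicate 2, which lay farthest from the Arntl median, r was -0.831. On the Arntl axis the arrays form a set of 2 and a set of 4 with a gap between them, so that r over all 6 reflects this gap in large part, and neither set is large enough for a test of its own. Neighbours in the order were in places close: lactation replicate 2 and control replicate 3 had 645 and 639 for Arntl and 354 and 361 for Dbp.

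Per3 followed the same order against Arntl with a single exchange, at r = -0.962 (exact permutation p = 0.00417, adjusted 0.0208) and rho = -0.943 (exact permutation p = 0.0167, adjusted 0.0417). Over the 4 remaining arrays its r was -0.656. Arntl and Nr1d1 had r = -0.792 (exact permutation p = 0.0653, adjusted 0.109) with rho = -0.943 (exact permutation p = 0.0167, adjusted 0.0417), and r over the 4 arrays was -0.572. Arntl and Per1 had r = -0.790 (exact permutation p = 0.0583, adjusted 0.109), rho = -0.714 (exact permutation p = 0.136, adjusted 0.272) and -0.937 over the 4 arrays. Arntl and Per2 had r = -0.884 (exact permutation p = 0.05, adjusted 0.109) but rho = -0.429 (exact permutation p = 0.419, adjusted 0.599). That relation rested on lactation replicate 1 and control replicate 2, since r without them was 0.328.

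Npas2 ran opposite to Per2, with r = -0.815 (exact permutation p = 0.0444, adjusted 0.109) and rho = -0.943 (exact permutation p = 0.0167, adjusted 0.0417), and r was -0.562 without lactation replicate 1 and control replicate 3. With Dbp, Nr1d1, Per1 and Per3 its r was -0.468, -0.124, -0.0717 and -0.600, and the adjusted p of these ranged from 0.415 to 0.900 by exact permutation. The call for Arntl with Dbp depended on scaling and on the probe sets. It ended with arrays centred on their medians (r = -0.945, adjusted p = 0.0833 by exact permutation) and when the probe sets of each gene were averaged (r = -0.746, adjusted p = 0.28 by exact permutation), which adds the dim Arntl probe set. The call for Arntl with Per3 ended under both of these and after quantile normalization, at r of -0.902, -0.611 and -0.954.

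**Figure D3:**
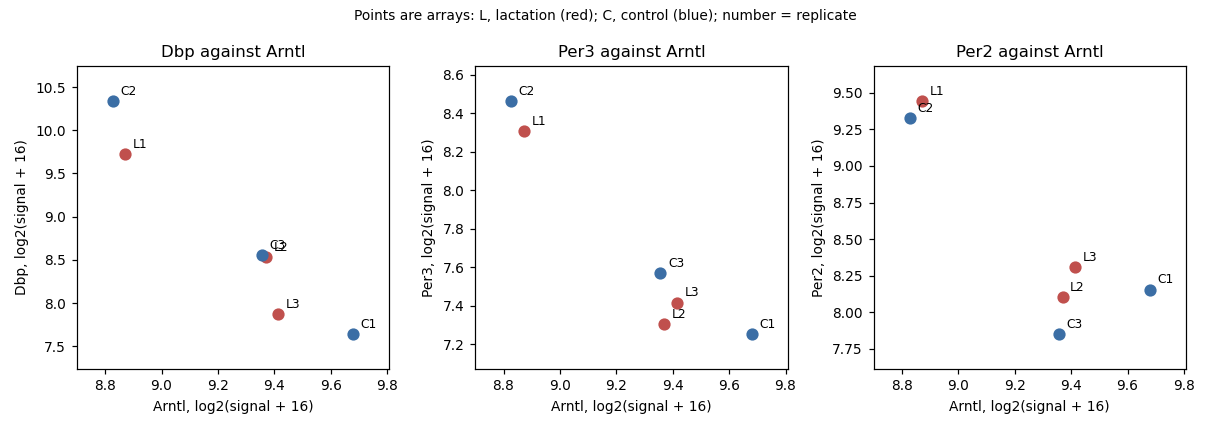
Dbp, Per3 and Per2 (vertical axes) against Arntl (horizontal axes), all as log2(signal + 16), with a point for each array (L, lactation; C, control; the number is the replicate). Dbp falls at each step of Arntl, Per3 does so with a single exchange, and the 4 arrays of higher Arntl show no such order for Per2.

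Set against all other tested genes, r with Arntl was as low as that of Dbp in 0.0172%, as low as that of Per3 in 0.0775%, and as low as that of Per1 in 2.70%. For Per2 and Nr1d1 the shares with Arntl were 0.775% and 2.62%. The shares with Npas2 were larger, at 5.17% for Per2, 14.8% for Per3, 21.9% for Dbp, 42.5% for Nr1d1 and 45.4% for Per1. These shares describe 6 arrays on which many genes move together, and they are no test. By Pearson r over the 6 arrays, the genes most unlike Arntl were Gpcpd1 (-0.994), Rab15 (-0.990) and Dbp (-0.969), and those most like it were Prkdc (0.991), Ccdc107 (0.985) and Clstn1 (0.980). The gene most like Dbp of all those tested was Tef, its relative among the D-box activators, with r = 0.994. Acvrl1 (0.994), a receptor of the BMP family, and Lpl (0.991), lipoprotein lipase, came next, and Sox9 (-0.984), Rnd2 (-0.983) and Carmil1 (-0.978) were most unlike it. Among the other members r with Dbp was 0.952 for Per3, 0.926 for Cry1, 0.903 for Nr1d2, 0.837 for Per2, 0.825 for Nr1d1 and 0.824 for Per1. For Arntl, Npas2 and Clock it was -0.969, -0.468 and -0.344.

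Skeletal muscle signal moved with these results in part. Ckm, muscle creatine kinase, measured 10528, 2694 and 1615 in lactation replicates 1, 2 and 3 and 2836, 9611 and 803 in control replicates 1, 2 and 3, so that the arrays of highest Dbp were also those of highest Ckm. Among the other 4 arrays the orders differed. Control replicate 1 had the most muscle signal of these and the least Dbp, and control replicate 3 had the least muscle signal and the most Dbp of them. Nr1d1 was at 160 in control replicate 3, where the summed muscle signal of 8272 was the lowest of all. The part of muscle in the order of the clock genes was not tested, and in a bulk tumour fewer cells of a type and less RNA per cell cannot be told apart. With the muscle level as a further term in limma, an alternative chosen after seeing the data, the differences between lactation and control ranged from -0.36 for Nr1d2 to 0.08 for Npas2, and no tested gene passed an adjusted p under 0.05. In that fit 333 of 11622 genes had an unadjusted p under 0.05, among them Nr1d2 of the 10 members (-0.36, standard error 0.15, unadjusted p = 0.0472, adjusted p = 0.999) and the clock output Usp2 (-0.42, standard error 0.13, unadjusted p = 0.0167, adjusted p = 0.999). Of the markers of other cell types, lactation replicate 1 and control replicate 2 were highest for 1 of 5 adipocyte markers (Cidec and Lep lay below the filter) and for 0 of the 7 macrophage, 5 endothelial, 7 fibroblast, 7 duct epithelial and 5 keratinocyte markers. They were highest for 2 of 5 T cell markers, Cd3d and Cd8a. The summed signal of the 5 T cell markers was 1431, 1353 and 1068 in lactation replicates 1, 2 and 3 and 1244, 1926 and 962 in control replicates 1, 2 and 3, so that it too was highest in lactation replicate 1 and control replicate 2. Its part in the order of the clock genes was not tested.

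**Figure D4:**
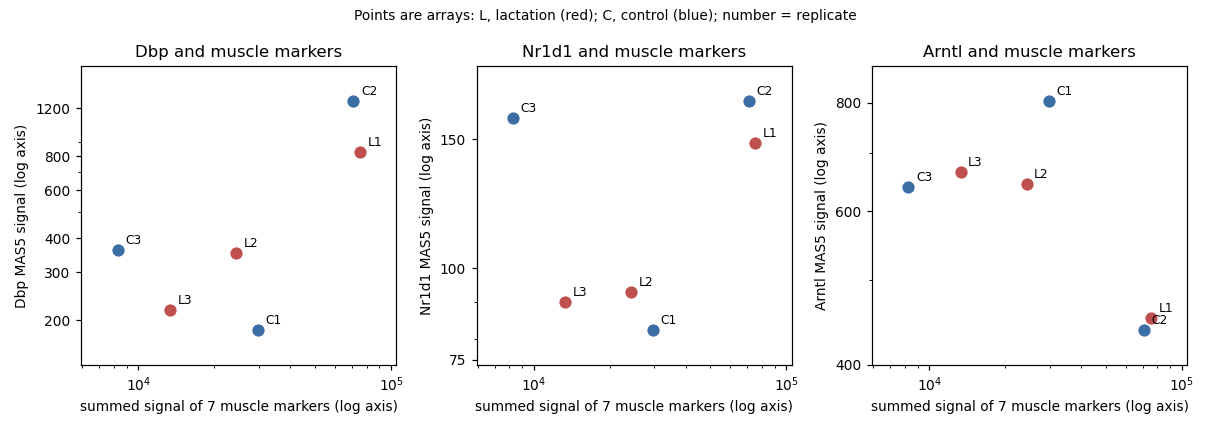
Signal of Dbp, Nr1d1 and Arntl (vertical log axes) against the summed signal of 7 skeletal muscle markers (horizontal log axes) on each array. Lactation replicate 1 and control replicate 2 lie at the right, and control replicate 3, with the least muscle signal (8272), has Nr1d1 at 160.

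Other genes of the clock were taken from a list of 19 core genes and regulators, of which 17 had a probe set and 13 passed the filter. None of the 13 passed limma over all genes, 0 had an unadjusted p under 0.05, and 8 had a higher and 5 a lower mean in lactation, with a median difference of 0.02. Tef, a D-box activator, measured 1291, 785 and 667 in lactation replicates 1, 2 and 3 and 648, 1636 and 844 in control replicates 1, 2 and 3. It repeated the order of Dbp on all arrays. Its difference of -0.13 (standard error 0.37) was 0.24 without control replicate 2. Nfil3, the D-box repressor, measured 430, 582 and 667 in lactation replicates 1, 2 and 3 and 629, 575 and 816 in control replicates 1, 2 and 3. Lactation replicate 1 was lowest, and control replicate 2 came next, close to lactation replicate 2. Of all tested genes, 9.07% had lactation replicate 1 and control replicate 2 as their lowest 2 arrays. The difference of Nfil3 was -0.27 (standard error 0.20). Leaving out lactation replicate 1 gave -0.093 for Nfil3, leaving out control replicate 3 gave -0.12, and leaving out lactation replicate 3 gave -0.40. Hlf, the remaining D-box activator, lay below the filter at 62.9, 43.4 and 56.3 in lactation and 54.4, 91.8 and 102 in controls.

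Arntl2, a relative of Arntl, had a difference of 0.26 (standard error 0.18), with 251, 270 and 343 in lactation and 266, 252 and 195 in controls. Without lactation replicate 3 or control replicate 3 it was 0.13. Rora, which codes for an activator of Arntl, had a difference of -0.20 (standard error 0.18), at 385, 343 and 295 in lactation and 307, 449 and 430 in controls. It was -0.36 without control replicate 1, -0.098 without control replicate 2, -0.099 without lactation replicate 3 and -0.13 without control replicate 3. Cry2, Ciart and Bhlhe40, which code for repressors of the ARNTL pair, had differences of 0.09, 0.02 and 0.16, and all 3 had overlapping groups. Leaving out each array in turn gave 0.0028 to 0.17 for Cry2 and 0.062 to 0.23 for Bhlhe40. Ciart, a strongly rhythmic gene in other tissues, did not follow Dbp here, with 88.5, 134 and 92.0 in lactation and 128, 127 and 63.0 in controls. Bhlhe41, from the same family as Bhlhe40, lay below the filter.

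Of 12 genes known as outputs of the clock, 11 were tested. None passed limma over all genes and 0 had an unadjusted p under 0.05, with 6 higher and 5 lower in mean and a median difference of 0.06. Groups did not overlap for 2 of the 11, both higher in lactation, beside 6.91% of all tested genes in either direction. Usp2, a ubiquitin protease that cycles in many organs, measured 414, 310 and 216 in lactation replicates 1, 2 and 3 and 398, 522 and 287 in control replicates 1, 2 and 3, and its difference was -0.35 (standard error 0.28). That difference was -0.56 without lactation replicate 1 or control replicate 3, -0.12 without lactation replicate 3 and -0.15 without control replicate 2. Tsc22d3, also called Gilz and induced by glucocorticoids, measured 2401, 2039 and 2051 in lactation and 1521, 4287 and 1860 in controls. Both had their highest values in lactation replicate 1 and control replicate 2. Of the 11 tested outputs, 3 had these as their highest 2 arrays and 1 as its lowest 2, where 8.69% and 9.07% of all tested genes did. The difference of Tsc22d3 was -0.09 (standard error 0.35) and 0.36 without control replicate 2, its highest array. Pparg, the adipocyte nuclear receptor, had groups that did not overlap, at 319, 294 and 357 in lactation and 272, 287 and 256 in controls, with a difference of 0.24 (standard error 0.13) and a limma adjusted p of 1.

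Nampt, the enzyme that limits NAD salvage, also had groups that did not overlap (2342, 2374 and 2443 in lactation, 1930, 2298 and 1961 in controls). Its difference was 0.21 (standard error 0.09), with an unadjusted p of 0.0521 and an adjusted p of 1 in limma. It was named after its values were seen. Of 12 genes inducible by glucocorticoids or cyclic AMP, 11 were tested, 0 passed over all genes and 0 had an unadjusted p under 0.05. The differences with the largest size were those of Sik1, a salt-inducible kinase, at 0.20 (standard error 0.19), and of Sgk1, a glucocorticoid-induced kinase, at -0.20 (standard error 0.24). Leaving out each array in turn gave 0.098 to 0.39 for Sik1 and -0.39 to 0.078 for Sgk1. Zbtb16, a glucocorticoid-induced transcription factor also named after its values were seen, lay below the filter and read 163, 24.1 and 13.9 in lactation replicates 1, 2 and 3 and 35.0, 230 and 11.5 in control replicates 1, 2 and 3. Of the 11 tested genes of that list, 3 had lactation replicate 1 and control replicate 2 as their highest 2 arrays and 0 as their lowest 2, where 8.69% and 9.07% of all tested genes did. Sik1, at 254, 390 and 377 in lactation and 297, 314 and 259 in controls, was lowest in lactation replicate 1.

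**Figure D5:**
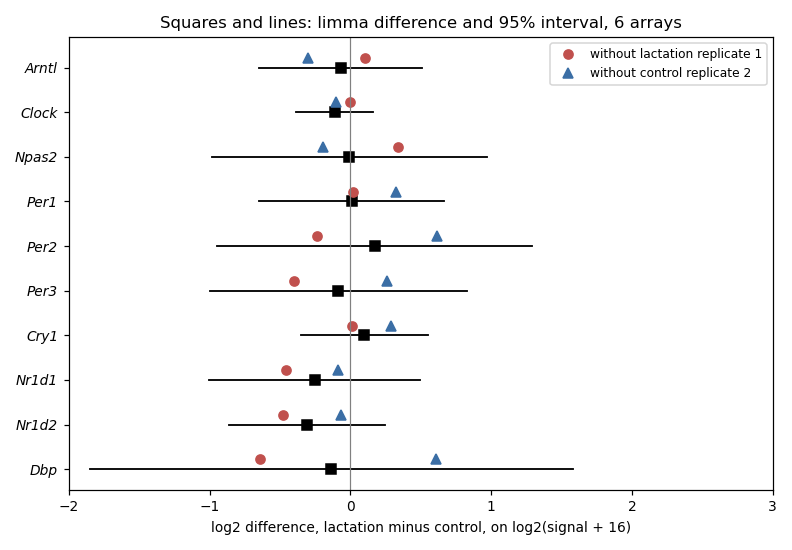
Log2 difference of each clock gene, lactation minus control, on the log2(signal + 16) scale, as a square with its 95% interval from limma over 6 arrays. Circles leave out lactation replicate 1 and triangles leave out control replicate 2; for Dbp these lie at -0.64 and 0.61, on either side of 0.

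The 95% intervals of the differences, each from 3 tumours against 3, were wide for most of the genes. For Dbp the 95% interval ran from -1.85 to 1.58, for Per2 from -0.94 to 1.29 and for Npas2 from -0.99 to 0.97. For Arntl it ran from -0.65 to 0.51, for Nr1d2 from -0.86 to 0.25 and for Cry1 from -0.35 to 0.55. Within-group SDs on the log2 scale were 1.17 for Dbp, 0.75 for Per2, 0.62 for Npas2 and 0.59 for Per3. These were larger than in 99.0%, 97.4%, 96.1% and 95.6% of tested genes. The median over all tested genes was 0.16.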

How the data were processed

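The deposited table holds 1 intensity per probe set and array, 45101 probe sets on 6 arrays, which the authors computed with MAS5 (per the submitters' processing notes). Version and genome build are not given in the sources used here, and trimmed by 2% at either end, every array averaged 500.0. No arrays shared more than 0.00222% identical values. Genes were named from the platform's table (34958 probe sets with 1 gene), and the probe set with the highest mean stood for its gene. Values were log2(signal + 16), which understates changes of dim genes, and genes with at least 3 of 6 arrays at or above the array median were kept. Lactation was compared with control over all genes in limma 3.58.1 (R 4.3.3; eBayes with trend; group as the only term; Benjamini-Hochberg at 0.05), tested on simulated data. Correlations used exact permutation of the pairings (Python 3.11.15). The members and lists were chosen with earlier results of these data known. Named were all members, a fixed set of other clock genes, and of each list genes with a difference of at least 0.5 and no overlap, or else the 2 largest. Likeness was named by the 3 highest and 3 lowest r. Replicate numbers were not used as pairs in the main fit. Same-numbered arrays correlated at 0.143, -0.0837 and 0.268 in their deviations from the group means, which with 3 arrays per group cannot exclude a pairing. Alternatives were other added constants (1 and 64), scalings, filters and probe set rules, other limma options, and arrays left out; leaving out lactation replicate 1 with control replicate 2, and the muscle term, were chosen after seeing the data.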

Additional observations from a re-analysis of the deposited data

How the results depend on the processing

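Over 19 alternatives limma called 0 genes at an adjusted p under 0.05, with 138 to 651 genes at an unadjusted p under 0.05 against 264; with the replicate block it was 0 and 290. Of the members, 7 had a lower mean in lactation, from 5 to 8 when an array was left out, and 4 without lactation replicate 1 and control replicate 2 together. No difference was called under any setting, but signs turned. With array weights the difference was 0.063 for Arntl, 0.15 for Npas2, -0.16 for Per1, -0.097 for Per2, -0.015 for Cry1 and -0.092 for Ciart. With the mean of the probe sets it was 0.0050 for Arntl and -0.062 for Per2, and Npas2 and Per3 fell below the filter. With arrays centred on their medians it was -0.037 for Per1 and -0.023 for Ciart, which was -0.022 after quantile normalization. With the muscle term it was 0.081 for Npas2, -0.021 for Per1 and -0.010 for Ciart. Without lactation replicate 1 and control replicate 2 together it was 0.0021 for Clock, 0.15 for Npas2, 0.10 for Dbp and 0.28 for Tsc22d3. Leaving out each array in turn gave -0.30 to 0.13 for Arntl, -0.20 to 0.36 for Npas2, -0.26 to 0.33 for Per1, -0.24 to 0.61 for Per2, -0.40 to 0.26 for Per3, -0.0099 to 0.29 for Cry1, -0.74 to 0.61 for Dbp, -0.26 to 0.17 for Ciart, -0.41 to 0.24 for Tef, -0.39 to 0.36 for Tsc22d3 and -0.39 to 0.078 for Sgk1. The cause of these turns was not tested. All 10 correlations stayed negative under 6 alternatives and 9 did without the farthest arrays, where Arntl with Per2 had 0.328. Of the 2 calls by Pearson's r, 1 held after quantile normalization and 0 with centred arrays or mean probe sets. At the 70th percentile filter 6 members were no longer tested. No detection calls were used here, so the limit that background sets on dim probe sets is unknown.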
